A study of Mus musculus with 6 samples.

Results

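The 13 protein-coding genes of the mouse mitochondrial genome were described in spermatogonia, the testicular germ cells with which sperm production begins. They are the rows of the deposited expression table whose chromosome is MT, 13 of 31918 rows in all. Every one of the 13 is annotated as protein coding, and the 13 starts and ends equal those of the GENCODE M21 annotation of the GRCm38 genome. The annotation also places 2 rRNA genes and 22 tRNA genes on this genome, which were not analysed here. Every mitochondrial share given below therefore counts only the protein-coding genes of this genome. The total FPKM beside it is the sum over all 31918 rows, of which 21968 are protein coding.

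The cells came from testes of pups at postnatal day 8 with the genotype Id4-eGfp (LT11), a fluorescent reporter line for Id4, which is a gene for a helix-loop-helix protein that keeps related factors from binding DNA. The 3 Bright libraries are labelled high and the 3 Dim libraries low for Id4 expression, and both groups carry the same reporter. Trizol was used to extract total RNA, and oligo d(T), the primer for cDNA synthesis, anneals to poly(A) tails. Nothing in the labels says that libraries of 1 group derive from different animals, so the p-values speak to the spread among these samples alone, and that spread may be technical. Library strandedness is not given in the sources used here. In such bulk libraries, fewer cells of a type and less RNA per cell cannot be told apart.

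Mitochondria keep a small circular genome of their own in many copies per cell. Its genes are read from both strands as long precursor RNAs by a single-subunit polymerase, and the tRNAs that lie between the coding genes are cut out to release the mRNAs. The proteins are core subunits of the respiratory chain and of the ATP synthase, which is completed by many nuclear-encoded subunits made in the cytosol. Most mitochondrial mRNAs carry poly(A) tails, and in mammals the tail can complete a stop codon that the gene itself leaves unfinished. Stretches of mitochondrial DNA are also found as inserted copies in nuclear chromosomes, where reads from an identical stretch match both places equally well.

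Of the 13 genes, 7 encode subunits of complex I (NADH dehydrogenase), 1 encodes cytochrome b of complex III, 3 encode subunits of complex IV (cytochrome c oxidase) and 2 encode subunits of complex V (ATP synthase). The forward strand carries 12 of them and the reverse strand carries mt-Nd6. Several genes share bases with a neighbour. The sequence of mt-Atp8, the gene with the highest FPKM in the table, is shown because the 43 bases in capitals at its end (chrM:7927-7969) are also the start of mt-Atp6. It is the GENCODE M21 transcript, chrM:7766-7969 on the forward strand of GRCm38, 204 bases written 5′ to 3′.

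mt-Atp8: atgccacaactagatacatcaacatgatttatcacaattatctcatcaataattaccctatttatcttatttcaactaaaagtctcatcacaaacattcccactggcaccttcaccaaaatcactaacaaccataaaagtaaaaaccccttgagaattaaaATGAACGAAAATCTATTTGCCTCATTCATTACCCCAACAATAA

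In the same way mt-Nd4l and mt-Nd4 share 7 bases (chrM:10167-10173), ATGCTAA, in which the start codon of mt-Nd4 precedes the stop codon of mt-Nd4l. The ends of mt-Nd5 and mt-Nd6 overlap by 14 bases on opposite strands (chrM:13552-13565), TTAATCTCGAGTAA as read on the forward strand, so without strand information reads there belong to either gene. The last base of mt-Atp6 is the first base of mt-Co3. Complete stop codons close 10 of the 13 genes. The other 3, mt-Co3, mt-Nd4 and mt-Cytb, end in a lone T after their last whole codon. The forward-strand junctions of mt-Co3 with the tRNA gene mt-Tg (chrM:9371-9410) and of mt-Cytb with mt-Tt (chrM:15269-15308) are shown with that T in capitals, since it marks the last base before the cut and the poly(A) tail on which oligo d(T) priming relies.

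mt-Co3 into mt-Tg: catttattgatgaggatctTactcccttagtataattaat
mt-Cytb into mt-Tt: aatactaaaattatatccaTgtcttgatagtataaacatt

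Germ cell markers, led by Uchl1 and Dazl, were present in all 6 libraries, with 10 of 10 in the table, none at 0 in any library, and a summed level of 1920 to 2920 FPKM (fragments scaled by transcript length and library size). Bright 3 stood apart in markers of other testis cells. Leydig markers, led by Insl3 and Cyp17a1, summed to 1810 FPKM there and to 2.26 to 4.25 FPKM in the other 5 libraries, where Lhcgr was at 0 in 4. Sertoli markers, led by Clu and Inha, summed to 547 FPKM against 9.74 to 26.4. Peritubular myoid and stromal markers, led by Dcn and Col1a1, summed to 39.2, 36.6 and 276 FPKM in Bright 1, 2 and 3. In Dim 1, 2 and 3 they summed to 30.1, 31.8 and 27.0 FPKM, so all Bright libraries lay above all Dim libraries. Col1a1 itself was lowest in Bright 3, at 17.7 FPKM against 18.5 to 25.7 in the other 5 libraries, while Dcn was at 151 FPKM there. Macrophage markers, led by Lyz2 and C1qb, reached 141 FPKM in Bright 3, 48.4 in Dim 1 and 55.3 in Dim 2, and stayed at 3.08 to 3.77 elsewhere. Endothelial markers, led by Cdh5 and Pecam1, summed to 8.60, 7.02 and 22.8 FPKM in Bright 1, 2 and 3 but to 2.89, 3.00 and 3.13 FPKM in Dim 1, 2 and 3, so that all Bright libraries lay above all Dim libraries, with or without Bright 3. The peritubular myoid and stromal sums also kept this order without Bright 3, but the single markers of that list did not all do so. In Bright 1 and 2, Col1a1 was at 25.7 and 22.8 FPKM against 18.5 to 19.7 in Dim. Pdgfra was at 6.13 and 6.46 FPKM against 1.19 to 1.53, and Tagln also lay above all Dim libraries. The values of Dcn, Col3a1, Col1a2, Acta2 and Myh11 in Bright 1 and 2 overlapped those in Dim. The part of the endothelial and stromal markers in the mitochondrial values was not tested. Erythroid markers, led by Hbb-bs and Hba-a1, summed to 19.8 FPKM in Bright 3 and 0.91 to 11.3 elsewhere. Values without Bright 3 are therefore given below wherever the result differs.

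By FPKM, mitochondrial transcripts were among the most abundant in these cells. Of the 13 genes, 8 had a mean level of at least 1000 FPKM over the 6 libraries, and mt-Atp8, mt-Co1, mt-Nd1 and mt-Cytb held ranks 1 to 4 of the whole table. All 13 passed the filter of at least 1 FPKM in at least 3 libraries in both groups alike, since the lowest single value among them was 46.7 FPKM (mt-Nd3, Dim 1).

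**Figure D1:**
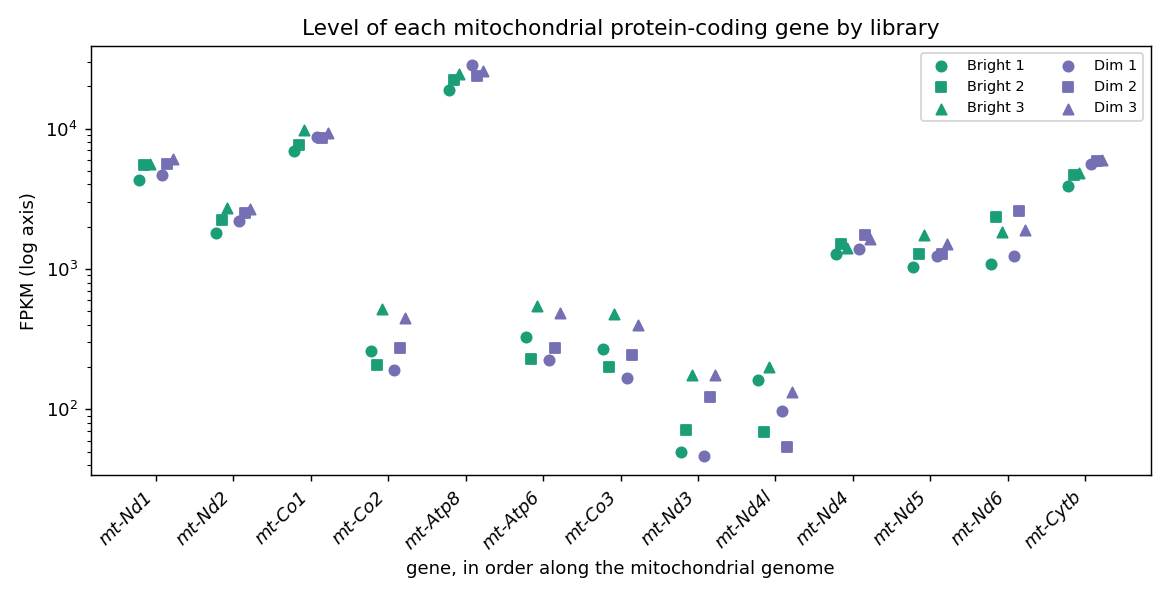
FPKM (log axis) of the 13 mitochondrial protein-coding genes in order along the genome, 1 point per library, Bright in green and Dim in purple with the replicate number as the symbol. mt-Atp8 is the highest in every library, at 18962 to 28141 FPKM, and 5 genes (mt-Co2, mt-Atp6, mt-Co3, mt-Nd3 and mt-Nd4l) lie far below their neighbours, with means of 107 to 347 FPKM.

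Among the complex I genes, mt-Nd1, a membrane subunit at the ubiquinone site, was measured at 4286, 5517 and 5561 FPKM in Bright 1, 2 and 3, compared with 4643, 5583 and 6105 FPKM in Dim 1, 2 and 3. Bright 1 was the lowest and Dim 3 the highest, and the groups overlapped. For mt-Nd2, a proton-pumping membrane subunit, the Bright libraries had 1806, 2224 and 2706 FPKM and the Dim libraries 2180, 2522 and 2658 FPKM. The Bright values spanned the whole Dim range. Levels of mt-Nd4, another pumping subunit, were 1275, 1508 and 1414 FPKM in the Bright libraries, and 1387, 1755 and 1625 FPKM in the Dim ones. The replicate 2 library was the highest within each group, and the groups overlapped.

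The largest pumping subunit, mt-Nd5, had 1040, 1275 and 1743 FPKM in the Bright libraries, and 1246, 1278 and 1504 FPKM in the Dim ones. Bright 1 and Bright 3 were the lowest and the highest of the 6 libraries. The reverse-strand gene mt-Nd6, which encodes a membrane subunit, had 1079, 2342 and 1827 FPKM in the Bright libraries, and 1233, 2590 and 1910 FPKM in the Dim ones. Its order by replicate number was the same in both groups, with 1 lowest and 2 highest, and the spread within each group (coefficient of variation 36.3% in Bright and 35.5% in Dim) was far larger than the distance between the group means. The remaining complex I genes were much lower. The small membrane subunit mt-Nd3 was at 49.5, 71.6 and 175 FPKM in the Bright libraries, and at 46.7, 122 and 177 FPKM in the Dim ones. The smallest, mt-Nd4l, was at 161, 68.7 and 202 FPKM in the Bright libraries, and at 98.1, 54.1 and 133 FPKM in the Dim ones. Bright 3 and Dim 3 were the highest libraries of mt-Nd3, and Bright 3 and Bright 1 those of mt-Nd4l, and the groups overlapped for both genes.

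Cytochrome b, the haem-carrying core of complex III, gave the one separation between the groups. The levels of mt-Cytb were 3878, 4676 and 4808 FPKM in Bright 1, 2 and 3, but 5570, 5913 and 5927 FPKM in Dim 1, 2 and 3. Every Bright library lay below every Dim library, with means of 4454 ± 503 and 5803 ± 202 FPKM (SD, n = 3 each). Groups that do not overlap were found for 1 of the 13 genes (7.69%), whereas 41.1% of all 13416 genes tested had such groups, 20.8% with Bright lower. A separation of this kind was thus common in the table.

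In complex IV, mt-Co1, the catalytic subunit with the copper and haem centres that reduce oxygen, had 6879, 7686 and 9725 FPKM in the Bright libraries, and 8737, 8556 and 9230 FPKM in the Dim ones. The Dim libraries lay close together (coefficient of variation 3.94%) inside the wider Bright range (18.1%). The subunit that takes electrons from cytochrome c, mt-Co2, had 259, 207 and 523 FPKM in the Bright libraries, and 189, 275 and 449 FPKM in the Dim ones. The third core subunit, mt-Co3, had 270, 200 and 480 FPKM in the Bright libraries, and 167, 244 and 402 FPKM in the Dim ones. For both genes Bright 3 and Dim 3 were the highest and Dim 1 was the lowest. In complex V, mt-Atp8, a short membrane subunit, had 18962, 22309 and 24509 FPKM in the Bright libraries, and 28141, 23723 and 25804 FPKM in the Dim ones. Dim 1 was the highest and Bright 1 the lowest, and Bright 3 lay above Dim 2. The proton-channel subunit mt-Atp6 had 327, 227 and 545 FPKM in the Bright libraries, and 224, 273 and 488 FPKM in the Dim ones, again with Bright 3 and Dim 3 highest.

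Ordered by mean FPKM, a scale that is per length, the genes ran mt-Atp8, mt-Co1, mt-Nd1, mt-Cytb, mt-Nd2, mt-Nd6, mt-Nd4, mt-Nd5, mt-Atp6, mt-Co2, mt-Co3, mt-Nd4l and mt-Nd3. The ranges over the 6 libraries did not overlap at 4 steps of this order: mt-Atp8 over mt-Co1, mt-Co1 over mt-Nd1, mt-Cytb over mt-Nd2, and mt-Nd5 over mt-Atp6. At the other steps the ranges of neighbours overlapped, as for mt-Nd1 and mt-Cytb, of which mt-Nd1 was the higher in 4 of 6 libraries. In FPKM, genes of the same complex were far from equal. The lower gene of each ratio within a complex given next, mt-Co2, mt-Co3, mt-Nd4l or mt-Atp6, has a near-whole copy in nuclear DNA, described below. Its value is uncertain for that reason, and so is the ratio. The higher genes mt-Co1 and mt-Nd4 have partial copies there, so their values are uncertain too. The mean FPKM of mt-Co1 was 26.7 times that of mt-Co2 and 28.8 times that of mt-Co3, and mt-Nd4 stood 12.5 times above mt-Nd4l. The mean of mt-Atp8 was 68.8 times that of mt-Atp6, the gene it overlaps, and 2.82 times that of mt-Co1. These ratios also depend on the length model, since mt-Atp8 has only 204 bases. Weighted by annotated length, mt-Atp8 held 12.2% to 15.3% of the summed level of the 13 genes, below mt-Co1 at 33.5% to 36.7%. Across libraries, Bright 1 was the lowest for 8 genes, Dim 1 for 4 and Dim 2 for 1, while Bright 3 was the highest for 7 genes. For 7 genes the highest pair of libraries was Bright 3 and Dim 3.

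None of the 13 genes differed between Bright and Dim in limma's moderated test on log2(FPKM + 1), with p-values adjusted by the Benjamini-Hochberg method over all genes tested. At an adjusted p under 0.05 the count was 0 of 13, and at an unadjusted p under 0.05 it was also 0 of 13, while 22.5% of the 13416 genes tested passed the adjusted and 35.4% the unadjusted threshold. Among 891 genes outside the mitochondrial genome with a mean of at least 100 FPKM, 58 (6.51%) were called. The log2 fold change, Bright minus Dim, was negative for 9 genes and positive for 4, with a median of -0.13 beside -0.03 over all genes tested.

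The estimate farthest below 0 was that of mt-Cytb, -0.39 (SE 0.25, 95% interval -0.96 to 0.19, limma adjusted p = 0.309). The highest was that of mt-Nd4l, 0.55 (SE 0.49, 95% interval -0.64 to 1.73, limma adjusted p = 0.475). For mt-Atp8 the estimate was -0.24 (95% interval -0.99 to 0.50) and for mt-Co1 -0.14 (-0.79 to 0.51). The half-width of these intervals ran from 0.48 for mt-Nd4 to 1.71 for mt-Nd3. The median standard error was 0.33 over the 13 genes and 0.17 over all genes tested. With 3 libraries a group and the group as the only term, differences of the size estimated here could not be told from 0. With the replicate number as a further term, the standard error was 0.12 for mt-Cytb and 0.11 for mt-Nd4l. These 2 genes were then called (limma adjusted p = 0.0353 and 0.00520), though the labels give same-numbered libraries no link beyond the number. The authors' deposited tables of single pairs do compare libraries of the same number.

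Signs of several estimates rested on single libraries. Without Bright 3, 12 estimates were negative and 1 was positive, and mt-Co2, mt-Atp6 and mt-Co3 changed from positive to negative (-0.30, -0.19 and -0.13). Leaving out Dim 1 turned the same 3 genes. Without Bright 1 the signs of mt-Nd1, mt-Nd2, mt-Nd3, mt-Nd5 and mt-Nd6 turned positive. Leaving out Bright 2, Dim 2 or Dim 3 turned mt-Nd5, mt-Nd6, and mt-Nd3 with mt-Nd5, respectively. mt-Cytb, mt-Atp8, mt-Nd4 and mt-Co1 stayed negative and mt-Nd4l stayed positive in all 6 fits that left out a library. The estimate of mt-Co1 was only -0.03 without Bright 1. In each of the 6 fits 0 of the 13 genes were called, as in the fit without Bright 3, which called 18.9% of all genes tested.

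**Figure D2:**
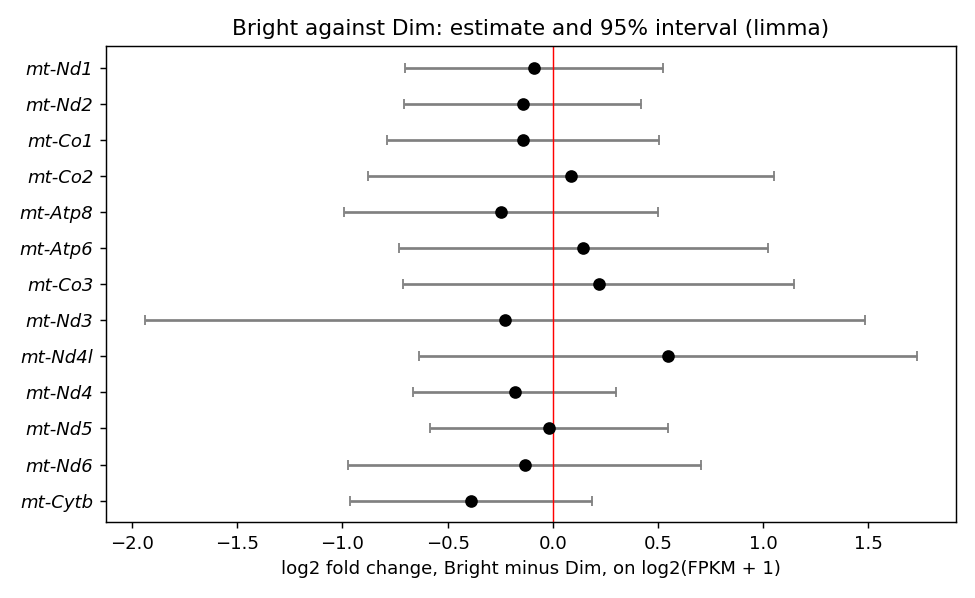
Log2 fold change, Bright minus Dim, on log2(FPKM + 1) for the 13 mitochondrial genes, with points for the limma estimate and bars for the 95% interval (3 libraries a group). Every interval includes 0, from -0.39 for mt-Cytb to 0.55 for mt-Nd4l, and the interval of mt-Nd3 is the widest.

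The 13 genes together held 7.93%, 8.06% and 10.4% of the summed FPKM in Bright 1, 2 and 3, against 10.3%, 8.70% and 9.94% in Dim 1, 2 and 3. The group means were 8.79 ± 1.38% and 9.63 ± 0.823% (SD, n = 3 each), and the groups overlapped because Bright 3 had the highest share of all 6 libraries. The difference of the means, Bright minus Dim, was -0.84 percentage points. Without Bright 3 it was -1.64, and both remaining Bright libraries lay below all 3 Dim libraries. It was -0.41 without Bright 1, -0.47 without Bright 2, -0.53 without Dim 1, -1.31 without Dim 2 and -0.69 without Dim 3. Part of each share belonged to a single short gene: mt-Atp8 alone held 3.72% to 5.36% of the total. With mt-Atp8 left out of the sum and the total, the share was 4.36%, 4.51% and 5.97% in the Bright libraries, and 5.18%, 4.99% and 5.65% in the Dim ones. Multiplied by annotated length, which approximates a share of fragments, the 13 genes accounted for 2.98%, 3.55% and 4.10% in the Bright libraries, and 3.76%, 3.95% and 4.19% in the Dim ones. With all 6 libraries the groups overlapped on each of these scales. Without Bright 3 they did not: the highest Bright share was then 4.51% against a lowest Dim share of 4.99% with mt-Atp8 left out. By length these were 3.55% and 3.76%.

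Within the mitochondrial pool, the share of mt-Cytb was 9.63%, 9.68% and 8.87% of the summed FPKM in Bright and 10.3%, 11.2% and 10.5% in Dim. All 3 Bright libraries again lay below all 3 Dim libraries, at means of 9.39 ± 0.454% and 10.7 ± 0.445%, and this stayed so without Bright 3, where the difference moved from -1.28 to -1.02 percentage points. Weighted by length the share was 13.4% to 15.1% in Bright and 16.2% to 17.1% in Dim, also without overlap. Complex I genes made up 25.4 ± 1.44% of the pool in Bright and 23.8 ± 3.26% in Dim, complex IV genes 18.3 ± 1.52% and 17.3 ± 0.509%, and complex V genes 46.9 ± 0.875% and 48.2 ± 3.90%, with overlapping groups in each case. These 3 differences rested on single libraries. Bright minus Dim, the complex I difference was 1.57 percentage points, -0.27 without Dim 1 and 0.80 to 2.81 without any other library. The complex IV difference was 1.01, and 0.27 without Bright 3 and 1.79 without Bright 2. For complex V it was -1.30, 0.93 without Dim 1, -2.72 without Dim 2 and -2.10 without Dim 3, and 0.28 with mt-Atp8 and mt-Nd4l left out of the pool. Nearly all of the complex V share was mt-Atp8, at 44.9% to 52.2% of the pool by FPKM and 12.2% to 15.3% by length.

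**Figure D3:**
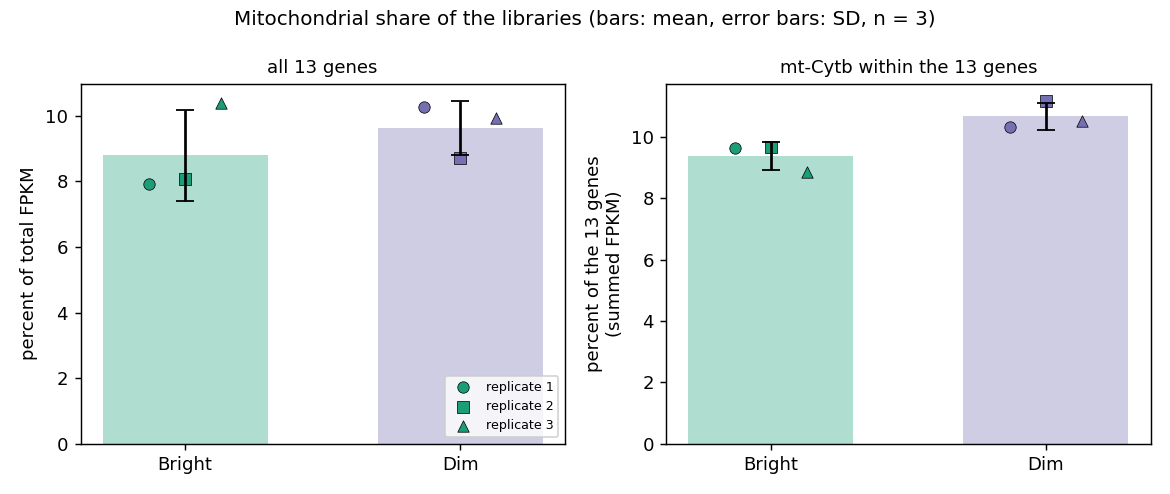
Left, the percent of the total FPKM held by the 13 mitochondrial genes; right, the percent of their summed FPKM held by mt-Cytb; bars are means, error bars SD (n = 3) and symbols single libraries. The total share overlaps between the groups, with Bright 3 highest at 10.4%, while the mt-Cytb share is 8.87% to 9.68% in Bright and 10.3% to 11.2% in Dim.

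The 5 low genes shared a feature of sequence. Each mitochondrial transcript was divided into all its windows of 50 bases, and each window was looked up on both strands in 141730 transcripts from outside the mitochondrial genome (GENCODE M21). For mt-Co2, mt-Atp6, mt-Co3, mt-Nd4l and mt-Nd3, 98.0% to 100% of windows had an exact match in a nuclear transcript. Aligned as a whole, each of the 5 had an unprocessed pseudogene on chromosome 1 that matched from 294 of 297 bases (mt-Nd4l) to 783 of 784 bases (mt-Co3) at an identity of 99.7% or more, namely Gm28661 for mt-Co2, Gm10925 for mt-Atp6, Gm28437 for mt-Co3, Gm28438 for mt-Nd3 and Gm10222 for mt-Nd4l, at chr1:24612407-24615565 on the reverse strand of GRCm38. They lay in the order of the mitochondrial genes and at their spacing: 233 bases parted the copies of mt-Co2 and mt-Atp6 and 69 bases those of mt-Co3 and mt-Nd3, as in the mitochondrial genome, and the gap from mt-Nd3 to mt-Nd4l was 74 bases in the copy and 73 in the original. The row of copies ran into parts of 2 more genes, with Gm29216 matching 483 of the 1545 bases of mt-Co1 and Gm28439 matching 876 of the 1378 bases of mt-Nd4.

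Over its 345 aligned bases Gm28438 differed from mt-Nd3 at a single base, T3C, counted from 1 at the first base of the gene. The starts of both (chrM:9459-9506 for mt-Nd3) are shown with that base in capitals, as the one base of the aligned stretch at which gene and copy differ.

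mt-Nd3: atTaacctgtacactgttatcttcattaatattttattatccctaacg
Gm28438: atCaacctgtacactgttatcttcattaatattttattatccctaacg

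Exact matches covered 62.2% of the windows of mt-Nd4, 51.1% of mt-Co1, 8.19% of mt-Nd2 and 7.61% of mt-Nd5, and none of those of mt-Nd1, mt-Atp8, mt-Nd6 and mt-Cytb. Only annotated transcripts were searched, so a copy outside them could not be found. This includes the 233 bases between the copies of mt-Co2 and mt-Atp6, a stretch in which mt-Atp8 starts in the mitochondrial genome. The last 43 bases of mt-Atp8, too few for a window of 50, match Gm10925. Whether mt-Atp8 has a nuclear copy was therefore not tested. The 5 genes for which near-whole copies were found had means of 107 to 347 FPKM, and the other 8 had means of 1348 FPKM or more. They also varied more between libraries. Their highest library was 2.43 to 3.79 times their lowest, against 1.38 to 2.40 times for the other 8 and a median of 1.60 and a 90th percentile of 2.17 for the genes outside the mitochondrial genome with at least 100 FPKM. Together the 5 genes held 2.65%, 1.60% and 3.55% of the mitochondrial FPKM in Bright 1, 2 and 3, against 1.35%, 1.83% and 2.92% in Dim 1, 2 and 3, highest in the replicate 3 library of each group. The pseudogenes themselves were not analysed here. How reads that match more than 1 place were counted is not given in the sources used here, and the part of the copies in the levels of these 5 genes was not tested. Values of mt-Co2, mt-Atp6, mt-Co3, mt-Nd3 and mt-Nd4l are uncertain for this reason. The same holds in part for mt-Nd4 and mt-Co1, with exact matches for 62.2% and 51.1% of their windows, and less for mt-Nd2 and mt-Nd5.

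**Figure D4:**
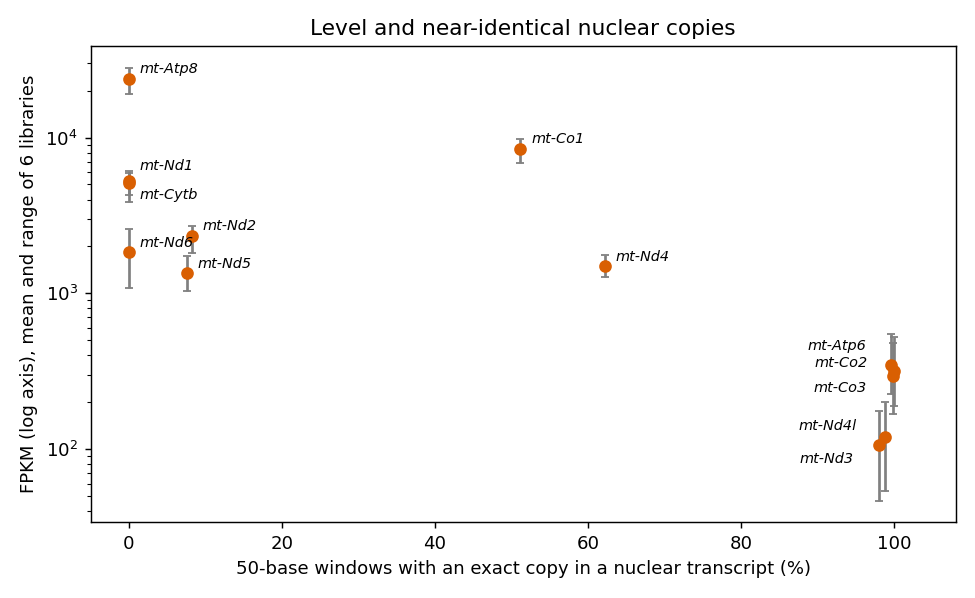
Mean FPKM over 6 libraries (log axis, bars from the lowest to the highest library) of each mitochondrial gene against the percent of its 50-base windows with an exact copy in a nuclear transcript. The 5 genes at 98.0% to 100% have means of 107 to 347 FPKM, and the 8 genes at 62.2% or less have means of 1348 FPKM or more. Copies outside annotated transcripts, as might exist for mt-Atp8, were not searched.

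The authors' deposited tables compare the groups with settings that are not stated. In the authors' deposited table of Bright against Dim, mt-Co1, mt-Atp8, mt-Atp6 and mt-Co3 are listed at 0 in both columns, although mt-Atp8 and mt-Co1 are the highest genes of the expression table. Of 6274 genes listed at 0 in both columns of that deposited table, 6 averaged 1 FPKM or more over the libraries: these 4 and the nuclear genes Snhg14 and Gm20388. The other 9 mitochondrial genes had 0 with a q-value under 0.05 in the authors' deposited table, where the lowest q-value was 0.505. mt-Cytb had a log2 ratio of -0.29 there. In the authors' deposited tables of single pairs, mt-Cytb had log2 ratios of -0.39, -0.29 and -0.27 and mt-Nd4l of 0.84, 0.38 and 0.52 for replicates 1, 2 and 3. None of the 39 comparisons of mitochondrial genes in those deposited tables of pairs had a q-value under 0.05, and all 13 genes had values above 0 in them.

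Nuclear genes whose products copy, read out and complete the mitochondrial genome were counted beside the 13 genes. The lists hold 261 genes, of which 259 were tested and 22 were called in the same limma fit, 4 higher and 18 lower in Bright. That is 8.49% of the tested members beside 22.5% of all genes tested (12% higher and 10.5% lower). The median log2 fold change was -0.18 over the lists, and -0.24 over the 78 nuclear subunits of the respiratory complexes, beside -0.03 over all genes. Summed over the lists, the count of calls was 14 without Bright 1, 14 without Bright 3, 10 without Dim 2 and 8 without Dim 3.

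Among 10 genes of mitochondrial transcription 1 was called: Polrmt, the polymerase that reads the mitochondrial genome, was lower in Bright at 18.0 ± 4.91 against 34.0 ± 11.2 FPKM (log2 fold change -0.87, limma adjusted p = 0.0412). Its Bright libraries had 17.4, 23.2 and 13.4 FPKM and its Dim libraries 27.3, 47.0 and 27.8 FPKM, with no overlap. Tfam, which packages mitochondrial DNA and starts transcription on it, was at 41.8 ± 5.82 and 42.7 ± 4.49 FPKM and was not called (log2 fold change -0.03). Of 15 genes of mitochondrial DNA maintenance 2 were lower in Bright, Slc25a33, a mitochondrial pyrimidine nucleotide carrier (16.6 against 32.1 FPKM), and Rnaseh1, which removes RNA from RNA-DNA hybrids (10.2 against 15.3 FPKM). RNA processing and stability had 2 calls of 23, with Pnpt1, a polynucleotide phosphorylase, lower (23.9 against 32.6 FPKM) and Ptcd2, a pentatricopeptide repeat protein, higher (17.3 against 11.2 FPKM). Among 8 biogenesis regulators, of which 6 were tested, Gabpb1, a subunit of the transcription factor NRF-2, was lower in Bright (21.7 against 31.9 FPKM). In the order given, the shares called in these lists were 10%, 13.3%, 8.7% and 16.7%, beside 22.5% of all genes tested.

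In the translation lists the shares called were 13.6% of tRNA synthetases, 12.5% of RNA modification genes, 6.49% of ribosomal proteins and 0% of translation factors. The share over all genes tested was 22.5%. Of 22 mitochondrial tRNA synthetase genes, Iars2, which charges the isoleucine tRNA, was higher in Bright (51.2 against 30.7 FPKM), whereas Yars2, its tyrosine counterpart (22.2 against 31.5 FPKM), and Gatc, a subunit of the glutamyl-tRNA amidotransferase (6.74 against 13.7 FPKM), were lower. The RNA modification list had 2 of 16 lower, the rRNA methyltransferase Mrm1 (3.18 against 6.42 FPKM) and Yrdc, which acts in a modification next to the anticodon of tRNAs (64.9 against 98.1 FPKM). Of 77 mitochondrial ribosomal proteins 1 was higher, Mrpl1 (21.4 against 14.1 FPKM), and 4 were lower, Mrps2, Mrpl18, Mrps7 and Mrps23, of which Mrps2 had the log2 fold change farthest below 0 (-0.87, 18.4 against 34.4 FPKM). None of 12 translation factors was called. The 2 highest were Tufm, the elongation factor, at 99.2 against 100.9 FPKM, and Oxa1l, which inserts the new proteins into the inner membrane, at 27.7 against 27.8 FPKM.

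Nuclear partners of the mitochondrially encoded subunits were called in complexes I, III and V. The shares called were 8.33%, 22.2% and 5.88%, beside 22.5% of all genes tested. In complex I, 3 of 36 were called: the accessory subunit Ndufa12 (31.9 against 64.8 FPKM) and the iron-sulphur subunit Ndufv2 (76.1 against 125 FPKM) were lower in Bright, and the accessory subunit Ndufb11 was higher (81.4 against 43.0 FPKM). In complex III, whose mitochondrial subunit mt-Cytb was not called in the same fit, 2 of 9 were called, a share near that of all genes. Both were lower in Bright, the core subunit Uqcrc2 (58.4 ± 5.17 against 99.9 ± 3.99 FPKM, limma adjusted p = 0.00425) and cytochrome c1, Cyc1 (129 ± 15.9 against 203 ± 26.6 FPKM, limma adjusted p = 0.0224). Complex V had 1 call of 17, Atp5f1, a stalk subunit, lower in Bright (135 against 249 FPKM). None of the 4 complex II genes, which has no mitochondrially encoded subunit, and none of the 12 complex IV genes was called. The highest were Sdha (132 against 148 FPKM) and Sdhb (99.2 against 126 FPKM) in complex II and Cox4i1 (549 against 671 FPKM) and Cox7c (364 against 379 FPKM) in complex IV.

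The called nuclear genes differed in how far they rested on single libraries. All 6 fits that left out a library kept 8 of the 22 calls: Slc25a33, Iars2, Gatc, Mrm1, Uqcrc2, Atp5f1, Mrps2 and Mrpl18. Polrmt, Rnaseh1, Yars2, Yrdc, Ndufv2, Cyc1, Mrps23 and Mrps7 lost their call without Bright 1, without Bright 3, without Dim 2 and without Dim 3, with limma adjusted p of up to 0.0825 (Mrps7) to 0.163 (Yars2). Pnpt1 lost it in every such fit (up to 0.173), Ptcd2 in all but that without Bright 1 (up to 0.118), and Mrpl1 in all but that without Bright 3 (up to 0.0920). Gabpb1 lost its call without Bright 3 or any Dim library (up to 0.0987), Ndufb11 without Bright 2, Bright 3, Dim 1 or Dim 3 (up to 0.0924), and Ndufa12 without Dim 3 (0.0562).

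**Figure D5:**
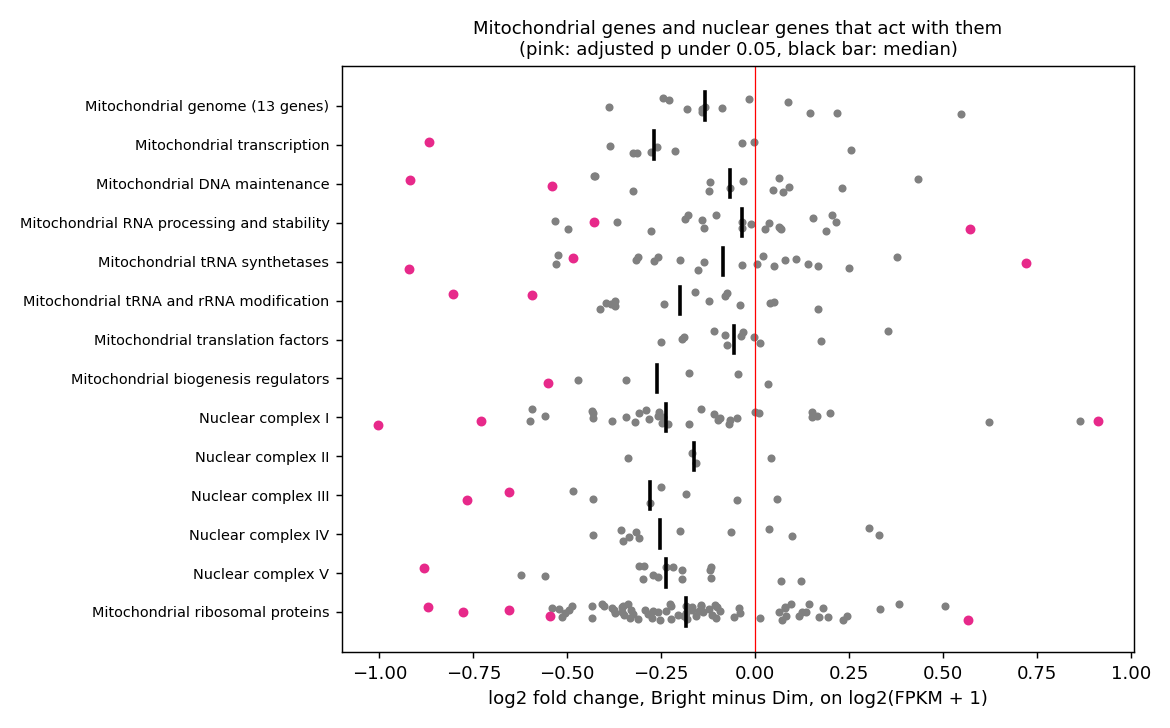
Log2 fold change, Bright minus Dim, of the 13 mitochondrial genes and of the nuclear genes of each list, 1 point per gene, with black bars for medians and pink points for a limma adjusted p under 0.05. None of the 13 mitochondrial genes is pink (median -0.13), and 22 of 259 nuclear genes are, 18 of them left of 0.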

How the data were processed

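The deposited table holds FPKM per gene for 6 libraries. Per the submitters' processing notes, alignment used TopHat2 2.1.1, quantification used Cufflinks 2.2.1, and the build was mm9. The coordinates in the table equal GRCm38 for all 13 mitochondrial genes and are given on that build. The authors also deposited 4 comparison tables that hold, per gene, FPKM, its log2 ratio, and p-value and q-value columns. How reads with several matches were counted and which transcript lengths were used is not given in the sources used here. Read totals were not used, so no counting interval is given, and FPKM of short genes depends on the length model.

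The analysed scale was log2(FPKM + 1), with no rescaling. The 13416 genes that reached 1 FPKM in 3 or more of the 6 libraries were tested with limma 3.58.1 in R 4.3.3, with the group as the only term, a mean-variance trend and robust empirical Bayes moderation. Benjamini-Hochberg adjustment ran over all genes tested, with a call at an adjusted p-value under 0.05. Fold changes on this scale understate those of low genes. The procedure was tested on simulated data. Shares and sums over members were given no test. Summed FPKM was 507734 to 607738 per library. Exact 50-base windows were matched by string search, and copies were aligned with blastn 2.17.0. Sequences are GENCODE M21 transcripts. All 13 mitochondrial genes were named, and of each nuclear list up to 6 called members with the largest fold change, or the 2 highest where none was called. Of marker lists the 2 highest were named. Members and lists were chosen with earlier results of these data known. The alternatives were another pseudocount, no filter, 2 scalings, a replicate block, plain moderation, each library left out, and other denominators and weights for shares.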

Additional observations from a re-analysis of the deposited data

How the results depend on the processing

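The count of 0 called mitochondrial genes held with a pseudocount of 0.1, without the filter, under both scalings, with plain moderation and with each library left out. Without the filter 9 nuclear list members were called in place of 22. With each replicate left out in turn, 1957 to 2603 of all genes tested were called in place of 3016 (1973 without Dim 3 and 1957 without Dim 2), and 8 to 23 list members. The replicate block, with the number as a term, called 5453 genes (40.6%), 88 list members and 2 mitochondrial genes, mt-Cytb (limma adjusted p = 0.0353, log2 fold change -0.39) and mt-Nd4l (limma adjusted p = 0.00520, log2 fold change 0.55). Deviations of same-numbered libraries from their group means correlated at 0.44, 0.51 and -0.19 across genes for numbers 1, 2 and 3. Those of Bright 2 and Dim 1 correlated at -0.60, and those of Bright 1 and Dim 2 at -0.55. The labels give same-numbered libraries no link beyond the number, while the authors' deposited tables of single pairs compare libraries of the same number. Whether such libraries form pairs was not settled. Libraries 1 and 2 correlated best with their own number and those numbered 3 did not. Scaling to the same summed FPKM outside the mitochondrial genome turned the sign of mt-Nd5. The mt-Cytb share of the mitochondrial pool, Bright minus Dim, was -1.28 percentage points, -2.95 without mt-Atp8 and mt-Nd4l, and -2.28 weighted by length, an alternative chosen after seeing the data, as were the shares by length and without mt-Atp8. Short RNA types had 0 rows, so that denominator changed nothing. What limits these results is 3 libraries a group and the missing strand. A further limit is the copies in nuclear DNA, near-whole for 5 genes and partial for others.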
